A study of Vitis vinifera with 16 samples.

Results

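The 200 genes whose levels differed most between replicate leaf pools of cv. Garnacha Blanca grapevine were described here, out of 13180 gene identifiers (ids) with a mean of 5 FPKM or more and 30661 ids in all. They were chosen by the values themselves: for each id, the mean of its group was subtracted from each of the 16 log2(FPKM + 0.1) values, and the 200 ids with the largest standard deviation (SD) of these 16 deviations were kept. FPKM are fragment counts scaled by the length of the gene and the size of the library. RNA of leaves was sequenced 24 h after spraying with Akivi (Aki, a botanical extract of Dittrichia viscosa, at 0.521 g/L), lyophilized Bacillus UdG (BL), the same Bacillus UdG as a fresh culture (BF, the species being B. velezensis) or water (NTC, the non-treated control), with 4 libraries in each group. All plants were grafted on rootstock 110R and grown in pots in a greenhouse, and each library pooled 2 leaves from each of 5 plants. Each treatment formed a greenhouse block of its own, so that treatment and block cannot be told apart. A pool holds leaf cells of many types, and a larger share of cells of a type and more RNA per cell cannot be told apart in it. The letter after the replicate in the sample descriptions was b for BL_R2 and NTC_R1, ab for BL_R4 and a for the others, and its meaning is not given.

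Replicate pools of a plant tissue share their treatment and differ in whatever else sets RNA levels, such as the age of the leaves, the time of sampling and the RNA preparation. Genes of the cell cycle are a known case, since they are active in young, dividing leaf cells and nearly silent in expanded leaves. D-type cyclins drive the entry into the cell cycle, B-type cyclins act at mitosis, and histone genes are transcribed while DNA is copied.

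The SD of the 200 ids ranged between 0.67 and 2.44 on the log2 scale (median 0.81), against a median of 0.18 over the 13180 ids. The members just inside the threshold were VIT_07s0031g02610, a NAC domain protein, with an SD of 0.6681, and VIT_17s0000g09190 with 0.6676. The ids just outside were VIT_13s0067g02280 with 0.6660 and VIT_13s0019g01760 with 0.6648. Ids on both sides of rank 200 thus differ only from the 3rd decimal on.

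Depth was similar in all libraries. Between 11078490 and 16991927 fragments per library could be rebuilt from the deposited values. Between 21423 (BF_R1) and 22331 (Aki_R3) ids were above 0 in a library. The study left Aki_R1, BL_R1, BF_R1 and NTC_R3 out of its own tests after a principal component analysis. All 16 libraries are used here, because the choice of members used all 16. Some results that rest on one of these 4 are also given without it. No description of leaf markers such as chlorophyll-binding proteins was among the sources used here, so that the labelled tissue could not be checked against them.

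Of the 200 members, 5 had a description in the study: VIT_09s0002g03340 (unknown protein, rank 25), VIT_03s0180g00040 (cyclin D3_2, rank 48), VIT_16s0022g00860 (an invertase/pectin methylesterase inhibitor, rank 106), VIT_04s0079g00810 (cold induced protein, rank 113) and VIT_07s0031g02610 (NAC domain containing protein 2, next to the threshold). They are 9.43% of the 53 described ids with a mean of 5 FPKM or more, against 1.52% of all ids at that level. The study picked these described genes on the same libraries, so the share is a description and no evidence on function. The functions that vary can be named for these 5 and, through likeness of pattern, for described genes that follow them. The other 195 members are known only by identifier. VIT_16s0022g00860 and VIT_07s0031g02610 were assayed by RT-qPCR in the study, and the primers that define the measured stretch of each transcript, on chromosomes 16 and 7 by their identifiers, are given 5′ to 3′ because they are the only sequences at hand for the members.
VIT_16s0022g00860 forward: gctgcaagaaatgtggaatgc
VIT_16s0022g00860 reverse: tcgactcttgtgactttgttttcc
VIT_07s0031g02610 forward: ctctccaagggaccgcaaat
VIT_07s0031g02610 reverse: aattccgaccgtcttgggtc

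The members were short genes with few fragments. Their median exon length, as the steps of the FPKM give it, was 701.5 bases, against 1390 bases over all 13180 ids, and 57 of them (28.5%) measured 300 bases or less, against 2.37%. The mean number of fragments per library had a median of 89.4 in members and of 381 in all ids, and 54 members held fewer than 30 fragments. Ids with the prefix ENSRNA, for which the sources give no description, were 25 of the members (12.5%) and 0.531% of all ids. Ids of sequence not placed on a chromosome (VIT_00) were 23 of the members (11.5%) and 5.83% of all ids.

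Few fragments widen the spread by counting alone, and how far can be computed. At the rebuilt fragment numbers, taken at each group's mean level, counting gave a median SD of 0.15 for the members. The measured SD was more than 3 times that value for 154 members and less than 2 times for 21, all 21 of them at 300 bases or less. Of all 13180 ids, 5559 were more than 3 times above counting and 3980 less than 2 times. Members were kept for their large SD, so their excess over counting follows in part from the choice and tests nothing. Of the 143 members over 300 bases, 141 were more than 3 times above counting. The 57 short members had a median SD of 0.87, against 0.41 from counting, and 19 of them were at 0 in at least 1 library. Counting thus makes up a larger part of the spread in the short ids than in the others, where it is small.

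**Figure D1:**
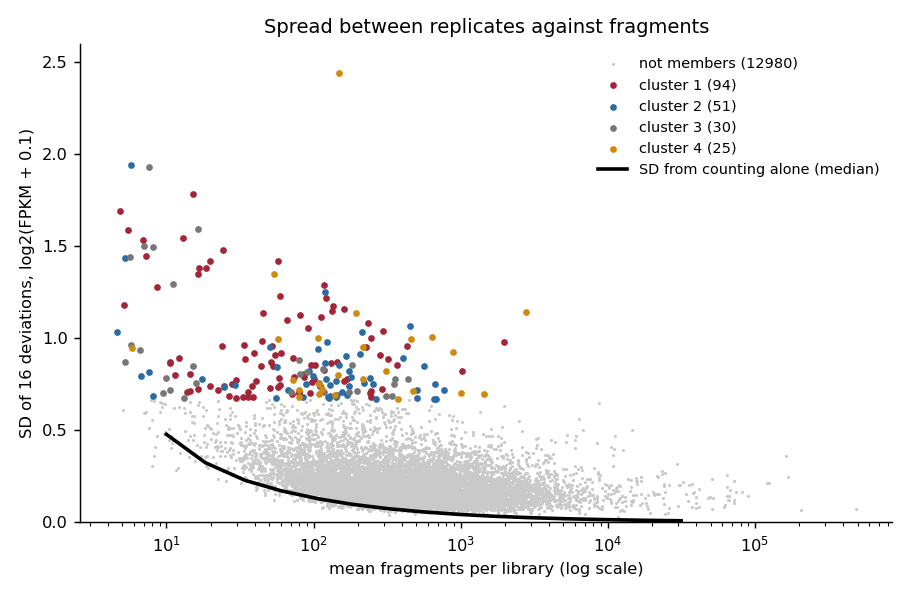
SD of the 16 deviations from the group means (vertical axis, log2(FPKM + 0.1)) against the mean fragments per library (horizontal axis, log scale) for the 13180 ids with a mean of 5 FPKM or more. Members are coloured by cluster, other ids are grey, and the line is the median SD that counting alone gives. Members between 0.67 and 2.44 lie well above the line at high fragment numbers and closest to it under 30 fragments.

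Short ids filled the top of the ranking. Of the 20 members of largest SD, 18 held fewer than 30 fragments and 19 were at 0 in at least 1 library. ENSRNA049447045, at rank 2 with an SD of 1.94 and 74 bases long, had 3.88, 7.32, 5.79 and 0 FPKM in Aki, 7.16, 7.70, 12.9 and 5.42 FPKM in BL, 4.94, 11.0, 14.4 and 0.977 FPKM in BF, and 0, 3.10, 4.90 and 3.86 FPKM in NTC. Its zeros in Aki_R4 and NTC_R1 allow up to 2.55 and 2.51 FPKM, the value of 3 fragments, so that all groups overlap, and its 2 largest deviations are those of the libraries with no fragment (these limits cover counting error only). VIT_02s0025g00060, at rank 3 and 93 bases long, was at 0 in BL_R4 and BF_R3 and between 3.93 and 9.34 FPKM in the other 14 libraries.

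The first-ranked member was not of this kind. Counting at the group means, which leaves out the larger counting error of low libraries, gave an SD of 0.22 for VIT_10s0116g01580. This id, 772 bases long and with no description, had a measured SD of 2.44. It had 30.1, 2.69, 0.238 and 0.244 FPKM in Aki_R1 to Aki_R4, 1.601, 0.844, 0.103 and 1.77 FPKM in BL, 1.14, 2.72, 0.806 and 19.4 FPKM in BF, and 64.7, 6.93, 0.188 and 77.6 FPKM in NTC. Aki_R1, BF_R4, NTC_R1 and NTC_R4 were high and NTC_R3 was as low as the lowest treated libraries, so that all 4 groups overlap. The ids most like it over the 16 libraries were VIT_12s0059g01830 (r = 0.95, itself a member), VIT_17s0000g01840 (r = 0.95) and VIT_03s0091g01060 (r = 0.95), a D-type cyclin described as cyclin delta-2.

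The spread was unevenly shared among the libraries. Of the members' summed squared deviations, 52.6% lay in BF, against 17.0% in Aki, 11.9% in BL and 18.6% in NTC. BF_R1 alone held 28.5%, BF_R4 12.8% and NTC_R3 8.00%. For 92 members the largest deviation was that of BF_R1, in 91 of them a low value, for 35 members it was that of NTC_R3, and for 17 that of BF_R4. The unevenness was not particular to the members: over all 13180 ids BF_R1 held 21.2% of the squares, and BF 42.4%. Over the members, BL pools were the most alike, with a median SD of 0.48 within the group, against 1.31 in BF, 0.62 in Aki and 0.70 in NTC. Over all 13180 ids BL and Aki were nearly equal (0.1524 and 0.1534), beside 0.2355 in BF and 0.1818 in NTC.

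Across groups, some libraries moved together over the 200 members. Aki_R3 and NTC_R3 had the highest correlation of deviations (r = 0.82 over 200 ids), followed by BF_R4 and NTC_R1 (r = 0.72), BL_R2 and BF_R2 (r = 0.66) and Aki_R1 and NTC_R4 (r = 0.63). Aki_R1 and NTC_R3 were the most opposed (r = -0.80). Over all 13180 ids these pairs had r of 0.63, 0.68, 0.46, 0.53 and -0.69. Deviations within a group sum to 0 and the ids are not independent of each other, so these values describe the libraries and carry no test.

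Clustering of the members on their deviations, scaled to equal SD, gave 4 clusters of 94, 51, 30 and 25 ids. Clusters 2 and 4 mirrored each other, with r = -0.94 between their median profiles over the 16 libraries. Clusters 1 and 2 had r = -0.13, and clusters 1 and 4 had r = 0.21. The members thus vary along a cluster 1 pattern, an axis with clusters 2 and 4 at its ends, and a looser cluster 3, whose ids had a median r of 0.61 with their cluster's mean profile, against 0.95, 0.79 and 0.96 in clusters 1, 2 and 4.

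**Figure D2:**
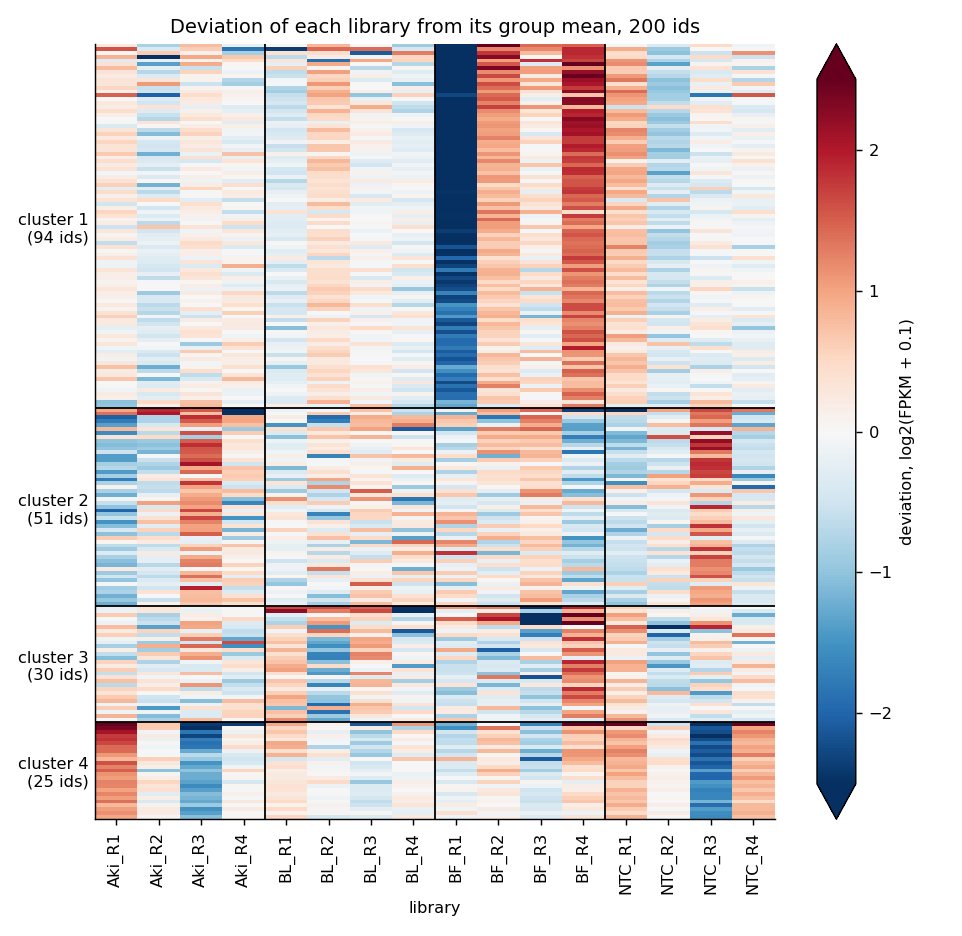
Deviation of each library (columns, by group) from its group's mean for the 200 members (rows, by cluster and SD), as the difference in log2(FPKM + 0.1), with colours cut at 2.5. BF_R1 is low through nearly the whole of cluster 1, and NTC_R3 and Aki_R3 are high in cluster 2 and low in cluster 4.

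Cluster 1, with 94 ids, was the cluster of BF_R1. Its median deviation was -2.49 in BF_R1, against 0.85, 0.22 and 1.48 in BF_R2, BF_R3 and BF_R4. BF_R1 was the lowest of the 16 libraries for 90 of the 94 ids, was under 25% of the lowest other BF library for 75, and was at 0 for 13. Beyond BF, NTC_R1 (0.69) and BL_R2 (0.45) were high and NTC_R2 (-0.61) was low.

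The ids nearest the mean of cluster 1 show the size of this. VIT_15s0048g02420, 688 bases long, had 4.57, 46.4, 30.0 and 68.3 FPKM in BF_R1 to BF_R4. Its levels were 138, 105, 140 and 122 FPKM in Aki, 56.3, 95.5, 67.1 and 51.6 FPKM in BL, and 269, 118, 171 and 176 FPKM in NTC. VIT_07s0005g05010, 599 bases long, had no fragment in BF_R1, which allows up to 0.366 FPKM, and 55, 15 and 92 fragments (6.22, 2.22 and 11.1 FPKM) in the other BF libraries. In VIT_05s0124g00040, 1709 bases long, BF_R1 stood at 0.514 FPKM, beside 9.91, 5.98 and 12.9 FPKM in BF_R2, BF_R3 and BF_R4. In all 3 ids BF_R1 lies below each of the other 15 libraries. None of the 94 ids has a description, and none of the 53 described ids at this level had an r above 0.7 with the cluster.

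The same profile ran through long genes of the whole table. The median deviation of the 152 ids longer than 5 kb was -0.82 in BF_R1, 0.63 in BF_R4, 0.36 in NTC_R1 and -0.27 in NTC_R2, and over the 16 libraries it had r = 0.97 with the median profile of cluster 1, the same without BF_R1 (r = 0.97). None of these 152 ids is a member. Among ids that are not members, an r above 0.7 with the cluster was found in 93.4% of those over 5 kb, 88.2% of those of 3 to 5 kb, 56.2% of those of 2 to 3 kb, 14.6% of those of 1 to 2 kb and 3.47% of those of 500 to 1000 bases. It was found in 12.1% of ids of 300 to 500 bases and in 16.0% of the shorter ones. In BF_R1 the median deviation was -0.13 at 1 to 2 kb and 0.14 at 500 to 1000 bases. The members of cluster 1 were themselves mostly short, with a median of 484.5 bases and 6 ids over 3 kb. Measures of RNA integrity per library were not analysed here, and whether RNA quality moves with this pattern was not tested.

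**Figure D3:**
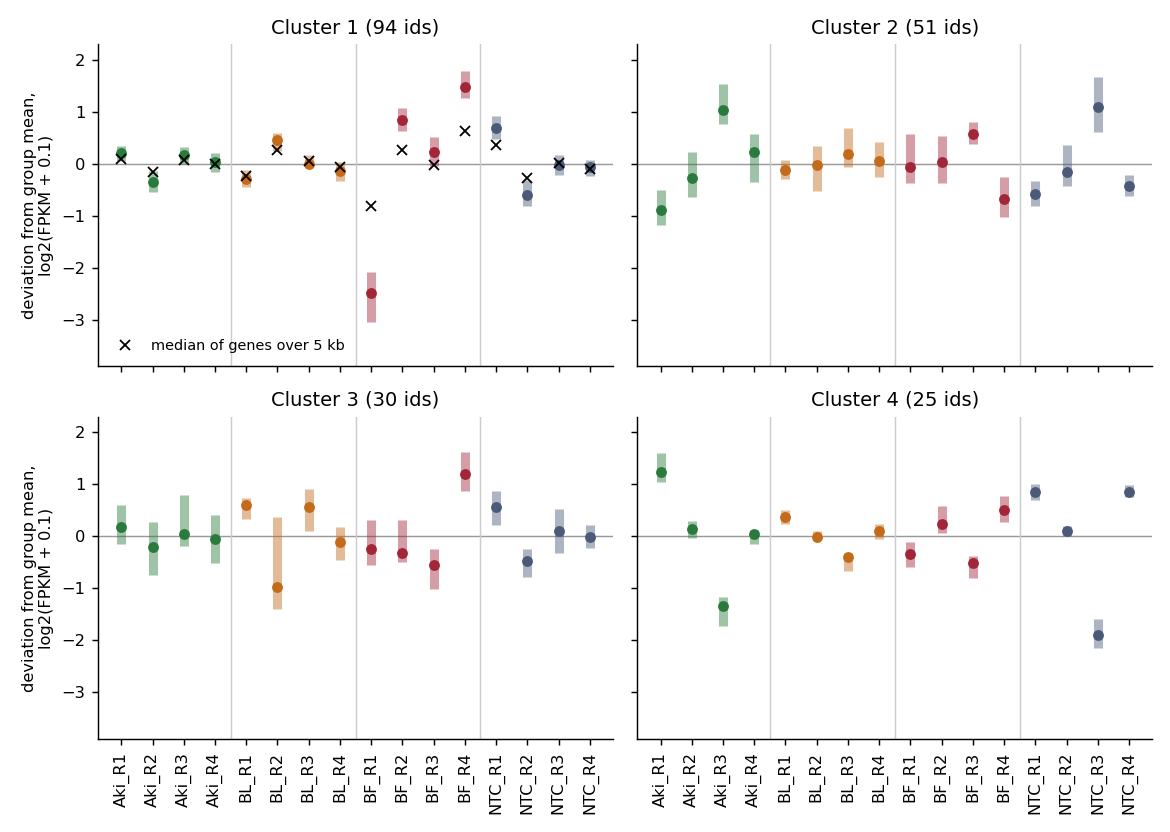
Deviation from the group mean (vertical axis, difference in log2(FPKM + 0.1)) in each library for the 4 clusters. Points are medians over the ids of a cluster, bars run between their 25th and 75th percentiles, and crosses in the panel of cluster 1 are medians of the 152 ids over 5 kb. BF_R1 lies at -2.49 in cluster 1. The crosses lie on the other side of 0 from the median of cluster 1 in BF_R3, Aki_R4, BL_R3 and NTC_R3. In every other library they lie on the same side.

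Without BF_R1 the same rule chose 128 of the 200 members again. Of cluster 1 it kept 24 of 94, of cluster 2 50 of 51, of cluster 3 all 30 and of cluster 4 24 of 25. Most of cluster 1 was thus among the 200 only with this library included. With the 12 retained libraries the rule kept 40, 37, 29 and 12 ids of clusters 1 to 4. All 5 described members were chosen again without BF_R1, with the 12 libraries that the study retained, and by the median absolute deviation in place of the SD.

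Clusters 2 and 4 held all 5 described members and showed the same libraries with opposite sign. In cluster 4 (25 ids) the median deviation was 1.23 in Aki_R1, 0.85 in both NTC_R1 and NTC_R4 and 0.50 in BF_R4, and -1.34 in Aki_R3 and -1.90 in NTC_R3. In cluster 2 (51 ids) it was 1.03 in Aki_R3, 1.09 in NTC_R3 and 0.57 in BF_R3, and -0.89 in Aki_R1, -0.58 in NTC_R1 and -0.68 in BF_R4. The BL libraries stayed within 0.39 of their mean in both clusters. These ids were longer than those of cluster 1 (median 1029 and 835 bases in clusters 4 and 2).

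Cluster 4 held cyclin D3_2 (VIT_03s0180g00040, 1665 bases, SD 1.00), a D-type cyclin that promotes the entry into the cell cycle. It had 31.4, 11.5, 4.85 and 10.5 FPKM in Aki, 13.3, 11.1, 6.00 and 11.4 FPKM in BL, 5.67, 16.4, 3.95 and 20.4 FPKM in BF, and 70.6, 27.0, 6.97 and 54.6 FPKM in NTC. NTC_R1, NTC_R4 and Aki_R1 were the 3 highest libraries, and NTC_R3 lay below most of the treated libraries, so that the groups overlap. The described id nearest to it was another D-type cyclin, VIT_18s0001g09920 (cyclin delta-3, CYCD3_1), with r = 0.97 and rank 231. VIT_02s0154g00600, near the mean of the cluster and with no description, had 21.9, 7.47, 1.22 and 8.01 FPKM in Aki and 45.1, 22.9, 3.45 and 42.6 FPKM in NTC, again with the replicates numbered 3 at the bottom of both groups.

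The described cell division genes followed cluster 4. Of the 10 with a mean of 5 FPKM or more, 1 is a member, and 8, this one included, had an r above 0.7 with the mean profile of cluster 4 (median r 0.85, range 0.19 to 0.98), where 7.00% of the ids outside the 200 did. These 8 are the D-type cyclins VIT_18s0001g09920, VIT_03s0180g00040 and VIT_03s0091g01060, the B-type cyclin VIT_08s0040g00930, which acts at mitosis and had the highest r (0.98), 3 ids of histone H4, around which DNA is wound, and 1 of the linker histone H1. Other H1 ids, VIT_07s0141g00730 (r = 0.22) and VIT_14s0081g00500 (r = 0.19), did not follow. The study chose these genes on the same libraries, so the count is not independent evidence for cell division. In settings added after the data were seen, the count was 8 also without NTC_R3 or without BF_R1, and 6 with the 12 retained libraries, where 4.67% of the other ids passed.

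The B-type cyclin VIT_08s0040g00930 shows the order of the libraries well. It had 13.4, 6.59, 4.01 and 6.68 FPKM in Aki, 4.04, 3.64, 3.22 and 3.38 FPKM in BL, 3.64, 4.61, 3.08 and 5.56 FPKM in BF, and 20.0, 12.1, 4.02 and 18.7 FPKM in NTC. NTC_R3 and Aki_R3 stand at the level of the BL and BF libraries, and the other NTC libraries are above all of these. The summed level of all 25 ids of cluster 4 behaved alike, with 1677, 531, 191 and 504 FPKM in Aki, 531, 352, 243 and 450 FPKM in BL, 464, 776, 353 and 1093 FPKM in BF, and 2126, 1121, 272 and 2213 FPKM in NTC. A good part of these sums comes from VIT_12s0059g01830, the member of highest mean level, whose values lay between 59.9 and 868 FPKM in Aki, 65.0 and 211 FPKM in BL, 121 and 547 FPKM in BF, and 96.4 and 1060 FPKM in NTC.

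**Figure D4:**
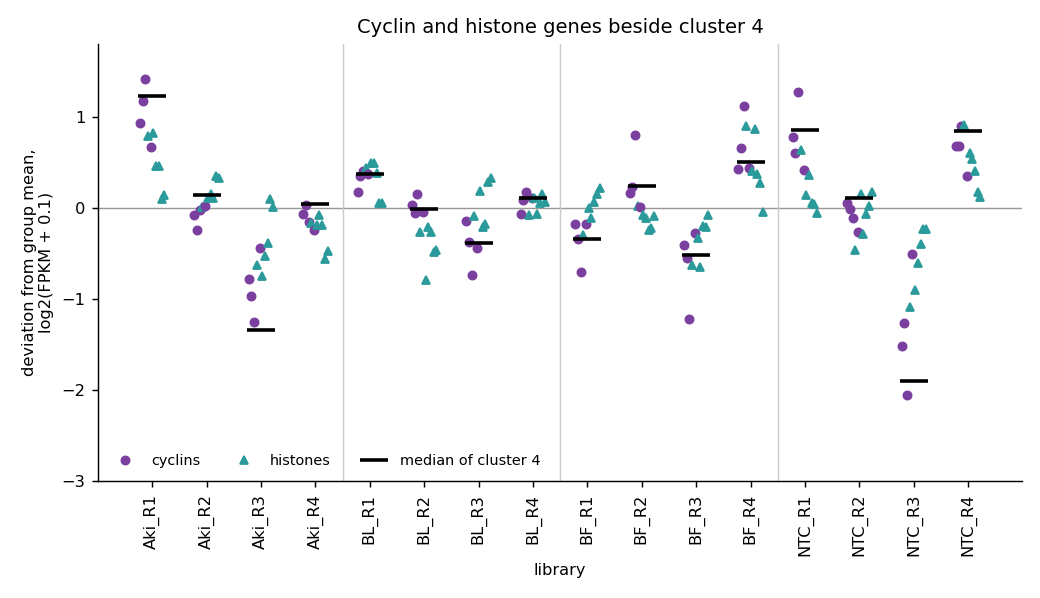
Deviation from the group mean (vertical axis, difference in log2(FPKM + 0.1)) of the 10 described cell division genes in each library, with 4 cyclins as circles, 6 histones as triangles and the median of cluster 4 as bars. Aki_R1, NTC_R1 and NTC_R4 lie above 0 for most genes, and Aki_R3 and NTC_R3 lie below, down to -1.90 for the median of the cluster in NTC_R3.

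At the other end of this axis, cluster 2 held 4 described members. VIT_16s0022g00860 is an invertase/pectin methylesterase inhibitor, a family of small proteins that block enzymes of sucrose cleavage or of cell wall pectin. It had 0.0843, 0.106, 1.01 and 0.148 FPKM in Aki, 18.5, 8.71, 18.9 and 15.2 FPKM in BL, 18.8, 21.8, 23.0 and 10.4 FPKM in BF, and 0.0729, 0.629, 0.853 and 0.419 FPKM in NTC. In Aki and NTC these levels rest on 1 to 14 fragments, and its largest deviation was in Aki_R3. Its BL and BF libraries lie above all Aki and NTC libraries.

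VIT_07s0031g02610 belongs to the NAC family, plant transcription factors with roles in development and stress. It had 9.98, 12.9, 33.9 and 31.7 FPKM in Aki, 42.0, 37.6, 59.9 and 76.5 FPKM in BL, 41.1, 34.9, 87.9 and 26.7 FPKM in BF, and 5.12, 9.38, 19.4 and 6.86 FPKM in NTC. Replicate 3 was the highest in Aki, BF and NTC, and BL and BF libraries were all above those of NTC. The cold induced protein VIT_04s0079g00810 had 2.76, 5.71, 12.7 and 9.27 FPKM in Aki, 44.2, 24.2, 50.7 and 54.6 FPKM in BL, 36.2, 12.3, 55.9 and 10.9 FPKM in BF, and 6.16, 8.16, 19.2 and 6.64 FPKM in NTC. Replicate 3 was again the highest in Aki, BF and NTC. The unknown protein VIT_09s0002g03340, the most variable described member, had 0.262, 0.770, 5.30 and 2.83 FPKM in Aki, 20.8, 4.76, 34.8 and 32.0 FPKM in BL, 19.8, 3.05, 30.1 and 7.66 FPKM in BF, and 1.74, 2.24, 7.60 and 1.91 FPKM in NTC. NTC_R3 overlapped the lowest BL and BF libraries in this gene.

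Other described genes shared the pattern of cluster 2 without being among the 200. Of the 48 described ids outside the 200, 7 had an r above 0.7 with its mean profile, against 5.69% of all ids outside the 200. They were a dynein light chain (r = 0.90), an ankyrin repeat protein (0.90), pathogenesis protein 10 (0.85), a protein class induced by infection, an unknown protein (0.84), a CONSTANS-like protein with a CCT motif (0.78), of a family linked to light and day length, a heat shock protein (0.78) and salt tolerance homolog2 (0.73). These too were picked by the study on the same libraries.

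Cluster 3 joined 30 ids and had a larger share of short and rare ids than the other clusters. Of the 30 ids, 15 measured 300 bases or less, 15 held fewer than 30 fragments and 11 had the prefix ENSRNA. The median was 43.4 fragments, and the longest id measured 1542 bases. Its median deviation was 1.19 in BF_R4, 0.61 in BL_R1, 0.57 in NTC_R1 and -0.97 in BL_R2. VIT_09s0002g08330, nearest its mean and 792 bases long, had 8.62, 2.47, 5.65 and 5.97 FPKM in BL and 3.05, 4.02, 2.92 and 19.8 FPKM in BF, so that BF_R4 was far above the other BF libraries. None of the 30 ids has a description.

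Among the 200 members 4 pairs had consecutive identifiers, and among all 13180 ids 6880 pairs did. A pair counts only where both ids are in the set, so these counts depend on the size of the set and are not comparable. Both ids of each pair of members were in the same cluster (r 0.85 to 0.98). Fragments that map to several places were not counted by the study, so near-identical neighbours may lose reads.

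The treatments were then compared with NTC. Members were ranked on deviations from group means alone, but the required mean of 5 FPKM over all 16 libraries rests on those means. VIT_16s0022g00860 met it through BL and BF, with means of 15.3 and 18.5 FPKM, against 0.34 in Aki and 0.49 in NTC. So did VIT_14s0068g01790 (26.1 and 10.9 FPKM, against 3.54 and 2.76) and VIT_09s0002g03340 (23.1 and 15.1 FPKM, against 2.29 and 3.37). VIT_11s0016g04670 and VIT_05s0049g00690 met it through Aki and NTC, with means under 5 FPKM in BL and BF. Differences of these ids between BL or BF and NTC are thus not independent of the choice. The same may hold for other members. The choice also used the spread that such a test is set against. Members accordingly had a median SE of 0.57 on their log2 fold changes in limma, against 0.18 for all 20246 ids tested. An id was called at an adjusted p of 0.05 or less (Benjamini-Hochberg over all ids tested) where its log2 fold change also reached 1.4 in either direction. The described members come from lists of genes that the study selected on these comparisons, so their calls are not independent of that choice. All 3 comparisons share the NTC libraries. In at least 1 of them 24 members were called, a count for which the share over all ids is not given here. The p-values measure the spread between pools of plants of the same block.

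After Aki, 2 of the 200 members were called (1.00%), against 0.380% of all ids, and both were higher, against 0.375% of all ids higher and 0.00494% lower. VIT_05s0049g00740 had 268, 299, 222 and 253 FPKM in Aki and 19.3, 32.2, 48.3 and 22.5 FPKM in NTC, with no overlap (log2 fold change 3.17 ± 0.50 SE, adjusted p = 0.00442). VIT_05s0049g00690 had 54.1, 80.0, 62.6 and 79.8 FPKM in Aki and 7.87, 12.3, 14.6 and 6.08 FPKM in NTC (2.81 ± 0.49, adjusted p = 0.00989). Neither has a description. On the adjusted p alone the count was again 2, against 0.929% of all ids. Without NTC_R3, 9 members were called (0.827% of all ids), and with the 12 retained libraries 32 (1.68% of all ids), of which 18 were lower ids of cluster 4 and 13 higher ids of cluster 2.

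After BL, 22 members were called (11.0%), against 2.59% of all ids, with 11 higher (1.50% of all ids) and 11 lower (1.09% of all ids). On the adjusted p alone the count stayed at 22, against 16.0% of all ids. The inhibitor VIT_16s0022g00860 rose (4.88 ± 0.56 on the log2 scale, adjusted p = 2.31e-05), as did the NAC protein VIT_07s0031g02610 (2.52 ± 0.47, adjusted p = 0.00149) and the cold induced protein VIT_04s0079g00810 (2.20 ± 0.54, adjusted p = 0.0112). The unknown protein VIT_09s0002g03340 was at the threshold (2.69 ± 0.87, adjusted p = 0.0465) and lost its call under 13 of 23 alternatives. Of ids with no description, VIT_14s0068g01790 rose, with 31.0, 12.7, 35.2 and 25.7 FPKM in BL and 1.77, 2.05, 4.01 and 3.23 FPKM in NTC (3.17 ± 0.52, adjusted p = 0.000649), and VIT_17s0000g09190 rose (2.13 ± 0.47, adjusted p = 0.00505). VIT_11s0016g04670 fell, with 3.45, 3.98, 2.64 and 1.08 FPKM in BL and 21.9, 24.1, 11.5 and 22.2 FPKM in NTC (-2.88 ± 0.54, adjusted p = 0.00174). VIT_05s0049g00740 fell as well (-2.20 ± 0.50, adjusted p = 0.00663), with 5.65, 5.44, 2.78 and 16.8 FPKM in BL, all below NTC.

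The count in BL moved with single libraries. It was 40 without NTC_R3 (3.55% of all ids), 44 with the 12 retained libraries (3.83%), 13 without BL_R3 (2.28%), 13 without BL_R4 (2.23%), 12 without NTC_R2 (2.18%) and 12 without NTC_R4 (2.08%). Of the 22 members, 20 were called again without NTC_R3 and 19 with the 12 libraries.

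After BF, 11 members were called (5.50%), against 2.27% of all ids, with 6 higher (1.26% of all ids) and 5 lower (1.01%). On the adjusted p alone it was again 11, against 15.8% of all ids. VIT_16s0022g00860 rose (5.15 ± 0.56, adjusted p = 1.26e-05) and so did VIT_07s0031g02610 (2.24 ± 0.47, adjusted p = 0.00345). VIT_05s0049g00740 fell, with 9.57, 2.36, 5.81 and 2.01 FPKM in BF (-2.80 ± 0.50, adjusted p = 0.00114), and VIT_05s0049g00690 fell, with 5.68, 0.642, 1.18 and 1.23 FPKM in BF (-2.57 ± 0.49, adjusted p = 0.00200), so that both had higher levels in Aki and lower levels in BF than in NTC. Without BF_R4 the count was 30 (2.95% of all ids), without NTC_R3 32 (2.87% of all ids) and with the 12 retained libraries 29 (2.73%). Without BF_R1 it was again 11 (2.12%). Of the 22 members called in BL and the 11 called in BF, 9 were called in both, each with the same sign. Both comparisons share the NTC libraries, and the overlap over all ids is not given here. This overlap is therefore not read as a trait of the members.

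**Figure D5:**
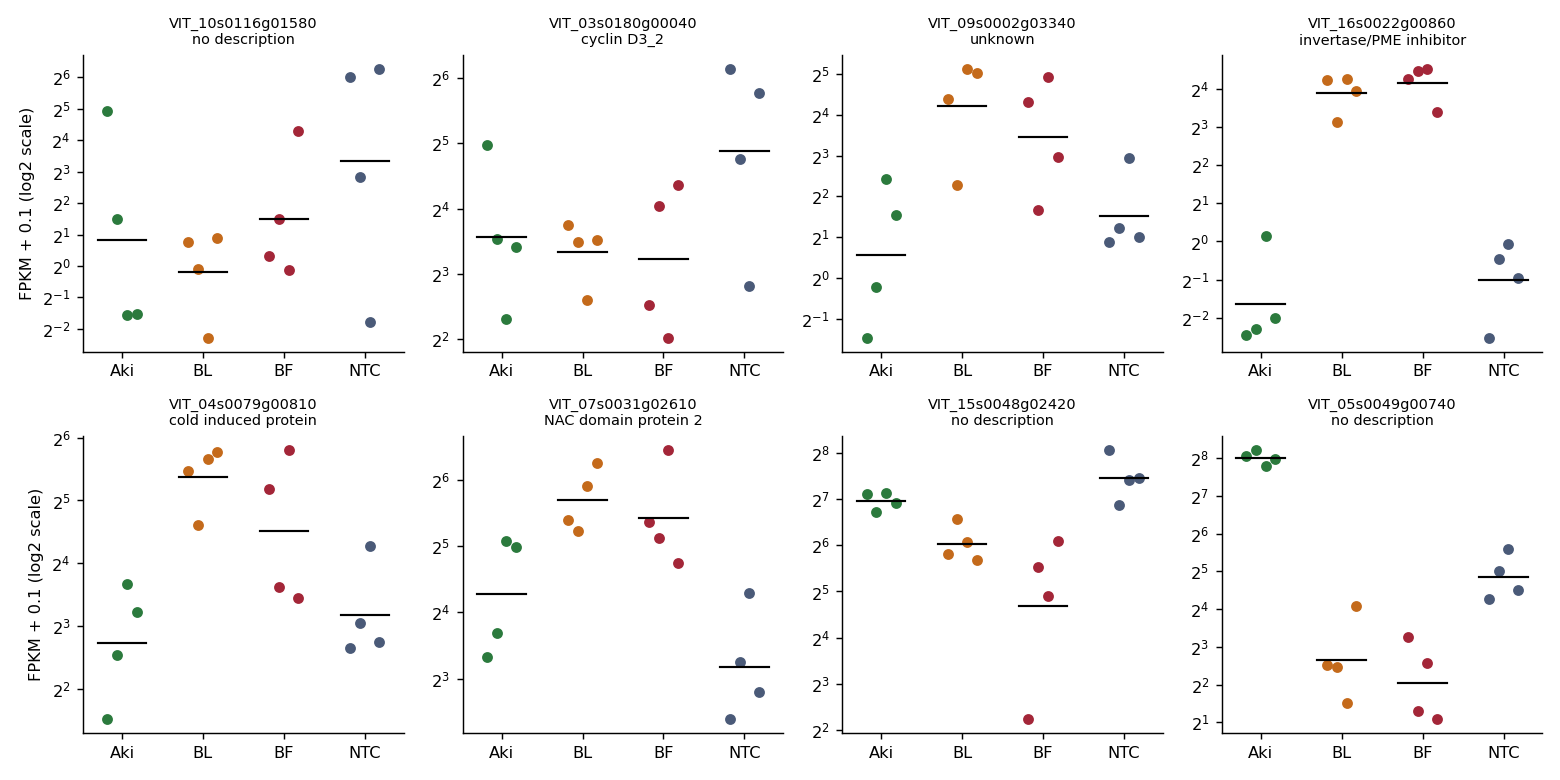
Levels of 8 members (vertical axis, FPKM + 0.1 on a log2 scale) in Aki, BL, BF and NTC, with 1 point per library in the order of the replicates and a line at the mean of the logs. The inhibitor VIT_16s0022g00860 and the NAC protein VIT_07s0031g02610 have all BL and BF points above NTC, while cyclin D3_2 and VIT_10s0116g01580 have an NTC_R3 point as low as the treated libraries.

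By cluster, the median fold changes shifted with the libraries that stand apart. The clusters were formed on deviations in these same libraries. Leaving out such a library therefore shifts a median by construction, and the calls with it. Cluster 4 had median log2 fold changes of -0.85 after Aki, -1.53 after BL and -1.17 after BF (all ids tested: 0.00, 0.03 and -0.03), with 24, 23 and 21 of 25 ids below 0 and 0, 6 and 0 called. Without NTC_R3 the medians were -1.49, -2.13 and -1.71 and the calls 3, 20 and 17, all lower. Without NTC_R4 none of the 25 was called after BL. The median after Aki was -0.32 without Aki_R3 and -1.26 without Aki_R1. Cyclin D3_2 had a log2 fold change of -1.32 in Aki (adjusted p = 0.55), -1.53 in BL (0.159) and -1.64 in BF (0.127), and with the 12 retained libraries -2.47 (adjusted p = 0.0254), -2.35 (0.0147) and -2.09 (0.0301) in the same order. Of the 15 described cell division genes that were tested, 0 were called lower after Aki, 6 after BL and 4 after BF, where 0.00494%, 1.09% and 1.01% of all ids were. The study had listed these genes as lower in the same libraries, so these counts describe its list and test nothing. In cluster 2 the medians were 0.34, 0.47 and 0.39 in Aki, BL and BF, with 2, 7 and 5 ids called higher and 0, 3 and 3 lower. Without NTC_R3 they were 0.72, 0.97 and 0.69, with 5, 12 and 8 ids called higher. The lowest medians without a single library were -0.06 after Aki (without Aki_R3), 0.23 after BL (without NTC_R4) and 0.19 after BF (without BF_R3). Without Aki_R1 the median of cluster 2 after Aki was 0.58.

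Cluster 1 had median log2 fold changes of -0.07 after Aki, 0.42 after BL and -0.93 after BF. In BF 87 of the 94 ids were below 0 and 2 were called, both lower. The cluster holds ids low in BF_R1, so leaving that library out raises the median by construction. Without BF_R1 the median in BF was 0.00, with 47 ids above and 47 below 0. Without BF_R4 it was -1.43, with 91 ids below 0 and 12 called, all lower. The median after Aki lay between -0.28 without NTC_R2 and 0.17 without NTC_R1, and that after BL between 0.24 and 0.65 without the same libraries.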

How the data were processed

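The authors trimmed reads with BBDuk, aligned them with STAR 2.6 to PN40024 12X, counted uniquely mapping reads per gene with featureCounts 1.6.1 and deposited FPKM obtained with edgeR. Members and gene lists were chosen with earlier results of these data known. Whole fragments and exon lengths were rebuilt from the steps of the FPKM (25309 of 25310 ids above 0, tolerance 0.0001 fragments) and used for counting error, lengths and an added alternative. Deviations of log2(FPKM + 0.1) were clustered by Ward's method. Group means were compared with limma 3.58.1 in R 4.3.3 (trend, robust, all 16 libraries, no block) on ids with 0.5 FPKM or more in 3 libraries. The fit was checked on simulated data whose spread was capped and whose libraries did not move together. That check therefore does not cover the members of largest SD or deviations shared by many ids. The test was run on the deposited unit, FPKM, in place of the study's count model. Python 3.11.15, pandas 2.3.3, NumPy 2.4.6, SciPy 1.17.1 and matplotlib 3.10.9 were used. Named were the 20 members of largest SD, those at the threshold, the 3 nearest each cluster mean, the 5 smallest adjusted p per comparison, and members the study describes (no list of functions had 3 members), of which the text gives a part, with at most 2 undescribed ids rising and 2 falling in a comparison. A fold change is on the log2(FPKM + 0.1) scale, which understates low genes. Depth limits cover counting error only. Promoters, proteins and coordinates were not used here. Alternatives changed the libraries, pseudocount, filter, scaling, moderation, block, threshold, mean level and measure of spread.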

Additional observations from a re-analysis of the deposited data

Results flagged for a closer look

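In groups of 4 libraries, a library was singled out where its gap to the nearest other library, on the log2(FPKM + 0.1) scale and divided by the range of the group, exceeded the 95% critical value of Dixon's test. This was looked for in 80 groups, 16 of them medians of the clusters. Chance singles out about 1 in 20 groups that were not chosen, but these genes and clusters were chosen for their spread on the same values, so that this rate does not apply and the ratios are a description. It was met 4 times. VIT_09s0002g03340 was high in NTC_R3 at 7.60 FPKM (ratio 0.8327). VIT_16s0022g00860 was high in Aki_R3 at 1.01 FPKM, or 14 fragments (ratio 0.8354). VIT_11s0016g04670 was low in NTC_R3 at 11.5 FPKM (ratio 0.8697). VIT_09s0002g08330 was high in BF_R4 at 19.8 FPKM (ratio 0.8346). No cluster median exceeded it, that of BF_R1 in cluster 1 included.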

How the results depend on the processing

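The 200 members depended on the level and the libraries. Of them, 34 were chosen again at a mean of 1 FPKM or more, 71 at 10 FPKM or more, 118 with the 12 retained libraries and 122 by the median absolute deviation, 179 with a pseudocount of 1 and 187 after median-of-ratios rescaling. Leaving out each library in turn gave 128 to 191. The share of squared deviations in BF_R1 was 20.7% with a pseudocount of 1 and 27.2% after rescaling. With 3 or 5 clusters, cluster 1 kept its 94 ids. With the 12 retained libraries 32, 44 and 29 members were called in Aki, BL and BF, against 2, 22 and 11 with all 16. Leaving out 1 library gave between 2 and 9 calls for Aki, between 12 and 40 for BL and between 9 and 32 for BF, the highest each time without NTC_R3. The cause was not tested.

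The replicate number as a block gave 2, 31 and 17 calls in Aki, BL and BF, against 0.38%, 2.69% and 2.36% of all ids. Libraries of the same number came from different plants, and of 24 such pairs 12 had deviations with r above 0.1 over all 13180 ids (range -0.52 to 0.63). All 6 pairs of the libraries numbered 3 were above it (0.23 to 0.63), as against 3, 2 and 1 of 6 for the numbers 1, 2 and 4, so the numbers as a whole were not taken to pair the samples. With the block, 0, 11 and 4 ids of cluster 4 were called lower in Aki, BL and BF, against 0, 6 and 0 without it. Every other setting with all 16 libraries kept the counts within 1.5 times. This includes a fit of rebuilt fragments with voom weights, chosen after seeing the data (2, 22 and 12 calls, against 0.449%, 2.82% and 2.54% of all ids). Of 17 named fold changes, none changed sign under 23 alternatives, and 13 stayed on one side of the threshold. The exceptions were VIT_09s0002g03340 in BL, which lost its call 13 times, and cyclin D3_2, which gained a call 7 times over the 3 comparisons. At a pseudocount of 1 the rise of VIT_16s0022g00860 was 3.42 in BL and 3.68 in BF. Depth limits members under 30 fragments.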
